A study of Mus musculus with 18 samples.

Results

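Parental mouse embryonic stem cells (ESCs) in 2i medium gave 2 of the 18 samples of the series, 1 without the inhibitor LY294002 and 1 at day 5 of it, and were chosen by their labels. The cells of both were EBRTcH3 ESCs, a male line of 129SV background. They were set beside the same parental line in conventional medium with serum and LIF, with 2 untreated samples and 2 at day 5 of LY294002, called serum replicates 1 and 2. In a fit described further on, ESCs overexpressing wild-type c-Myc and ESCs overexpressing its T58A mutant, each in serum with 1 untreated and 1 day 5 sample, entered too. Whether LIF was added to 2i, the dose of LY294002, and whether samples came from separate cultures were not given in the labels, so a spread between samples may be technical. The series asked how PI3K signalling and Myc act in ESC self-renewal, and the 2i pair asked what LY294002 does in a medium other than serum.

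Phosphoinositide 3-kinase (PI3K) answers to growth factors and cytokines and activates the kinase Akt, which holds FOXO transcription factors out of the nucleus and promotes growth and glucose use. LY294002 is an inhibitor of PI3K that also acts on related kinases such as mTOR. The 2i medium holds an inhibitor of MEK, which blocks the path from FGF to ERK, and an inhibitor of GSK3, which stabilises beta-catenin, and it keeps mouse ESCs in the naive state of pluripotency, the state of the early epiblast. In serum, by contrast, ERK is active and a part of the cells turns on genes of the later, formative epiblast.

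Levels are deposited log2 array values, and a change is the day 5 value minus the untreated value of its pair, so 1 is 2-fold. With 1 array per state in 2i, its changes have no replicate check and no test, and they are given as higher or lower. A gene was counted in 2i where either sample lay above 4.64, the 40th percentile of the table, which left 12633 of 18194 genes. All 8 ESC markers lay above that level in both 2i samples, from 8.34 to 14.30 untreated and from 9.62 to 14.21 at day 5. Of the 7 fibroblast markers on the array 1 did so in each sample, of 6 primitive endoderm markers 3 untreated and 2 at day 5, of 5 trophoblast markers 2 in each, and of 4 neural markers 2 in each. The log2 of their summed linear levels went from 7.03 to 6.99 for fibroblast, from 7.28 to 7.12 for primitive endoderm, from 7.31 to 7.00 for trophoblast and from 8.12 to 8.96 for neural markers, the last through Tubb3. The array medians of the 2i pair and of serum replicate 1 were 5.03 to 5.05 and those of the other 14 arrays 5.31 to 5.52, so these 4 arrays appear to have been normalised apart, which no label states. In such bulk samples fewer cells of a type and less RNA per cell cannot be told apart.

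At day 5 of LY294002 in 2i, most genes lay close to their untreated level and the larger differences were mostly downward. Of the 12633 genes 55 (0.435%) were at least 2-fold higher and 282 (2.23%) at least 2-fold lower, while 11117 (88%) differed by less than 0.5. By the same count serum replicate 1 had 83 genes (0.664%) higher and 386 (3.09%) lower, and serum replicate 2 had 809 (6.17%) higher and 531 (4.05%) lower. The 2i threshold ran between Cdh2, at 1.006, and Mymx, at 0.999, on the upper side, and between Mme, at -1.001, and Tfrc, at -0.999, on the lower side. Only 4 of the higher and 23 of the lower genes reached 4-fold. Over 13599 genes the 2i change correlated with that of serum replicate 1 at r = 0.502 and with that of serum replicate 2 at r = 0.062. The changes of the 2 serum replicates correlated with each other at r = 0.414, less than 2i did with serum replicate 1. The 2i pair and serum replicate 1 share the apparent normalisation run, and the part of that in the likeness was not tested.

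**Figure D1:**
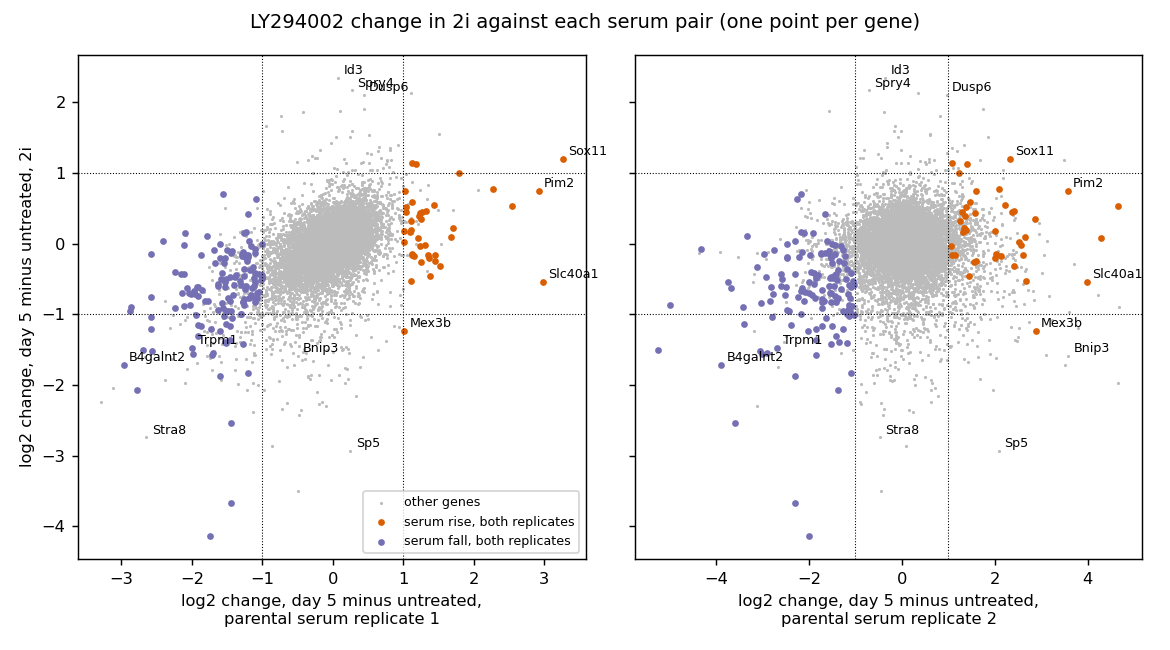
The log2 change with LY294002 at day 5 in 2i (vertical axis) is plotted against the log2 change in serum replicate 1 (left) and serum replicate 2 (right), with 1 point per gene measured in 2i and dotted lines at 2-fold. Coloured points are genes at least 2-fold higher (orange) or lower (purple) in both serum replicates; most orange points lie between the horizontal lines, and the purple points lie mostly below 0.

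Few of the genes that LY294002 left at least 2-fold higher in both serum replicates were 2-fold higher in 2i. Genes it left lower in serum were mostly lower in 2i as well, by less. There were 61 such serum-higher genes (0.449% of 13599) and 139 serum-lower genes (1.02%). Of the 61, 4 were kept in 2i (at least 2-fold higher, against 0.435% of all genes). Another 7 were partly kept (higher by 0.5 to 1, against 3.32%), and 26 were absent (under 0.5 either way, against 88%). A further 2 were opposite (lower by 0.5 to 1) and 1 was reversed (at least 2-fold lower, against 2.23%). The other 21 lay below the level filter in both 2i samples. Of the 40 that passed it, 10% were kept and 65% absent. Of the 139 serum-lower genes, 30 were kept (against 2.23% of all genes), 53 partly kept (against 6.02%) and 49 absent (against 88%). Another 2 were opposite, none was reversed and 5 were below the level filter.

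**Figure D2:**
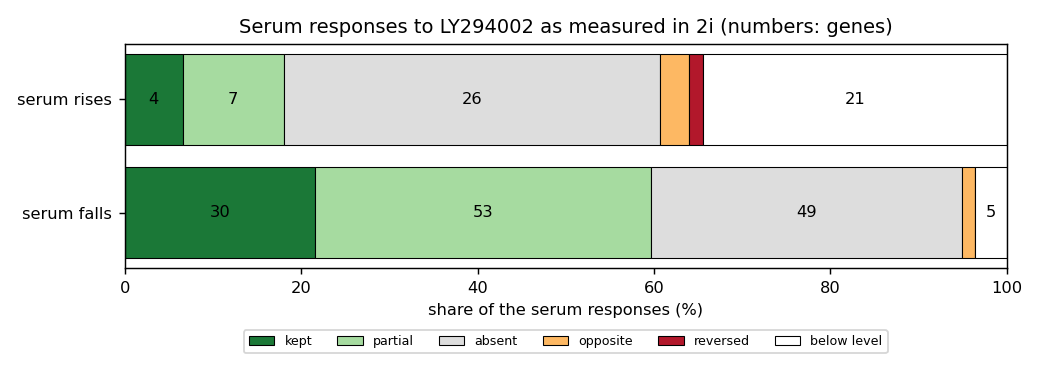
Bars split the 61 serum-higher and the 139 serum-lower genes by their change in 2i, in percent of each set, with the number of genes printed where it exceeds 3. The kept and partly kept shares together are 11 genes of 61 above and 83 of 139 below.

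Among the 40 serum-higher genes measured in 2i the median change was 0.19 in 2i, 1.24 in serum replicate 1 and 2.00 in serum replicate 2. Of the 40, 25 were above 0 in 2i, against 50.7% of all genes. The difference was smaller in size in 2i than in either serum replicate for 38 of the 40. Among the 134 serum-lower genes measured in 2i the medians were -0.63, -1.51 and -1.74. Of the 134, 124 were below 0 in 2i (49% of all genes) and 125 were smaller in size there than in either serum replicate. The median of all genes was 0.00 in 2i. Because these genes were chosen for their size in both serum replicates, a pair outside the choice may show smaller differences in any medium, so the serum pairs of the c-Myc lines, which the choice did not use, were set beside 2i. They are other lines and their arrays belong to the 14 with higher medians, as serum replicate 2 does. Over 13599 genes their changes correlated with that of serum replicate 2, which the choice used, at r = 0.865 (wild-type c-Myc) and 0.786 (T58A). With serum replicate 1 the values were 0.488 and 0.501. Likeness to serum replicate 2 may raise their kept counts, so the c-Myc pairs cannot show how far the choice alone shrinks a change. For the same 40 genes their medians were 1.87 (wild-type c-Myc) and 1.70 (T58A), with 36 and 32 at least 2-fold higher, against 4 in 2i. For the same 134 genes the medians were -1.52 and -1.45, with 104 and 100 at least 2-fold lower, against 30 in 2i. Of the 134, 58 and 63 were smaller in size there than in either parental serum replicate. The untreated starting points of the serum-lower genes were near each other, with medians of 7.93 in 2i and 7.82 and 7.92 in serum, and at day 5 the medians were 7.19 in 2i and 6.06 and 5.86 in serum. The classes rest on both serum replicates: taken from serum replicate 1 alone, 83 genes were serum-higher with 6 kept and 393 serum-lower with 111 kept, and from serum replicate 2 alone 811 with 14 kept and 532 with 41 kept.

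The 4 kept serum-higher genes were Sox11, Cdh2, Timm21 and Tmem42. Sox11, a transcription factor of the epiblast and nervous system, read 4.25 untreated and 5.45 at day 5 in 2i, against 6.01 and 9.27 in serum replicate 1 and 7.86 and 10.18 in serum replicate 2. Its day 5 level in 2i was thus below both untreated serum levels. Cdh2, the gene for N-cadherin, read 6.32 and 7.32 in 2i, 5.49 and 7.28 in serum replicate 1 and 8.38 and 9.60 in serum replicate 2, so the day 5 levels of 2i and serum replicate 1 met. Timm21, a part of the mitochondrial import machinery, was higher by 1.12 in 2i and by 1.17 and 1.40 in serum. Tmem42, a membrane protein gene, was higher by 1.14 in 2i and by 1.12 and 1.09 in serum. Averaging all probe sets of a gene put Sox11 at 0.65 and Cdh2 at 0.98.

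Of the 26 absent serum-higher genes the 8 with the largest mean change in serum were Tmcc3, Epha1, 2610528J11Rik, Lef1, Zfp36, Adgrl2, Cldn6 and Nrk. Tmcc3, a gene for a membrane protein of the endoplasmic reticulum, read 5.58 and 5.65 in 2i, 5.80 and 7.01 in serum replicate 1 and 4.84 and 9.12 in serum replicate 2. Lef1, a transcription factor of the Wnt pathway, read 5.48 and 5.32 in 2i, 6.14 and 7.59 in serum replicate 1 and 5.96 and 8.57 in serum replicate 2. Zfp36, whose protein destabilises AU-rich mRNAs, read 6.55 and 6.23 in 2i, 6.43 and 7.94 in serum replicate 1 and 6.18 and 8.60 in serum replicate 2. For all 3 the untreated levels in 2i and serum were near each other and the day 5 levels of serum lay above both 2i levels. The Ephrin receptor gene Epha1 was higher by 0.10 in 2i and by 1.68 and 2.65 in serum, the claudin gene Cldn6 by 0.46 against 1.33 and 2.41, and the kinase gene Nrk by 0.45 against 1.26 and 2.38. The adhesion receptor gene Adgrl2 differed by -0.03 in 2i and by 1.31 and 2.55 in serum, and the unnamed transcript 2610528J11Rik by 0.35 in 2i and by 1.25 and 2.86 in serum.

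Mex3b, an RNA-binding protein gene, was the only reversed one. It read 6.43 untreated and 5.20 at day 5 in 2i, 4.84 and 5.86 in serum replicate 1 and 4.09 and 6.97 in serum replicate 2. The untreated 2i sample was above both untreated serum samples, and day 5 brought 2i below both serum samples at day 5. Slc40a1, the gene for the iron exporter ferroportin, read 5.20 and 4.65 in 2i, 4.46 and 7.43 in serum replicate 1 and 5.21 and 9.19 in serum replicate 2. Its untreated level was much alike in the 3 pairs, and at day 5 it was 2.97 and 3.97 higher in serum and 0.54 lower in 2i.

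Of the 30 kept serum-lower genes the 8 with the largest mean change in serum were Napsa, B4galnt2, Niban1, Dleu7, Ttn, Ak7, Pmel and Trpm1. Trpm1, a cation channel gene of melanocytes and the retina, read 11.04 untreated and 9.56 at day 5 in 2i, 7.00 and 5.00 in serum replicate 1 and 7.95 and 5.27 in serum replicate 2. It was higher in both 2i samples than in any of the serum samples. Pmel, the gene of the melanosome fibril protein, differed by -1.13 in 2i and by -1.52 and -3.40 in serum. The glycosyltransferase gene B4galnt2 read 7.92 and 6.21 in 2i, 7.54 and 4.57 in serum replicate 1 and 8.45 and 4.57 in serum replicate 2, so 2i kept a higher day 5 level. The aspartic protease gene Napsa differed by -1.50 in 2i and by -2.70 and -5.25 in serum, Niban1, a stress-response gene, by -1.51 against -2.57 and -3.05, and the adenylate kinase gene Ak7 by -1.56 against -1.99 and -3.02. Dleu7 differed by -1.04 in 2i and by -2.59 and -2.79 in serum. Ttn, the gene of the muscle protein titin, differed by -2.54 in 2i and by -1.44 and -3.60 in serum, with a second probe set at -0.88 in 2i.

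Of the 49 absent serum-lower genes the 8 with the largest mean change in serum included Adgrd1, Pla1a and Inpp5d. Adgrd1, an adhesion receptor gene, read 7.50 and 7.35 in 2i, 8.62 and 6.05 in serum replicate 1 and 8.25 and 5.28 in serum replicate 2. Pla1a, a phospholipase gene, read 9.49 and 9.06 in 2i, 8.36 and 6.21 in serum replicate 1 and 9.68 and 7.08 in serum replicate 2. Inpp5d, which encodes the phosphatase SHIP1 that removes a phosphate from the lipid product of PI3K, read 9.43 and 8.96 in 2i, 9.36 and 7.90 in serum replicate 1 and 9.83 and 6.90 in serum replicate 2. In each of these the 2i sample at day 5 was above both serum samples at day 5. G0s2, an inhibitor of fat breakdown, differed by -0.08 in 2i and by -1.11 and -4.32 in serum, Fetub, a secreted protease inhibitor gene, by -0.09 against -1.69 and -2.75, and Zmat4, a zinc finger gene, by 0.11 against -1.79 and -3.33. The sialyltransferase gene St8sia6 differed by -0.43 in 2i and by -2.11 and -2.31 in serum, and Timm8a2, a mitochondrial import gene, by 0.03 against -2.41 and -2.30.

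Whether the 2i change differed from the parental serum change was tested for 13581 genes with limma in 10 samples, where each treated sample was blocked with its untreated reference, which left 2 residual degrees of freedom. The lone 2i pair was assumed to vary like the serum pairs. No gene (0%) passed an adjusted p of 0.05, and the smallest limma adjusted p was 0.405. Before adjustment 457 genes (3.36%) had p under 0.05 with a higher and 432 (3.18%) with a lower change in 2i. So none of the differences between media named here passed the test over all genes. Without serum replicate 1 the same limma fit passed 1137 genes as higher and 1845 as lower in 2i, with 1 residual degree of freedom and a smallest adjusted p of 0.0075, and without serum replicate 2 it passed none.

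The smallest unadjusted p-values were those of genes with near-equal changes in both serum replicates. Adam23, an adhesion protein gene, read 4.88 and 6.75 in 2i, 8.80 and 8.37 in serum replicate 1 and 8.30 and 7.90 in serum replicate 2, a difference of 2.28 ± 0.19 (SE) between media. It was higher at day 5 in 2i and lower in both serum replicates. Mitf, the regulator of melanocyte genes and of lysosomes, differed by -0.40 in 2i and by -2.24 and -1.97 in serum (difference 1.70 ± 0.22), and Nrp2, a co-receptor of semaphorins and VEGF, by 0.14 against -2.09 and -2.11 (difference 2.24 ± 0.26). Pcolce2, a procollagen processing gene, differed by -0.16 in 2i and by -1.87 and -1.99 in serum. On the other side were the non-coding transcript Gm16136, at -0.14 in 2i and 2.19 and 2.24 in serum (difference -2.35 ± 0.18), the lysophosphatidic acid receptor gene Lpar4, at -0.46 against 1.38 and 1.44, and the integrin gene Itga1, at 0.28 against 2.34 and 2.32. Itga1 lay below the level filter in both 2i samples, at 3.07 and 3.35, as did the imprinted gene Peg10, at 3.81 and 3.46, which was higher in serum by 2.09 and 2.24. Pdzrn3, a ubiquitin ligase gene, read 7.06 and 4.90 in 2i, 3.31 and 3.63 in serum replicate 1 and 3.41 and 4.19 in serum replicate 2, so it was above the filter only in 2i.

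Naive pluripotency genes, whose products hold the naive state, lay near their untreated levels in 2i. Of 21 measured 1 was 2-fold higher in 2i (0.435% of all genes) and none 2-fold lower (2.23%), with 16 below 0 (49% of all genes), a median of -0.11 and a range from -0.52 to 1.19. The same 21 had medians of -0.54 and -1.02 in serum, with 3 and 11 at least 2-fold lower (3.09% and 4.05% of all genes) and 1 and 2 at least 2-fold higher. Gbx2, a homeobox gene of naive cells, was among the higher ones, at 6.12 and 6.67 in 2i, 8.62 and 10.06 in serum replicate 1 and 7.27 and 9.49 in serum replicate 2. Pou5f1, the gene of the core factor Oct4, read 12.84 and 12.79 in 2i, and Sox2, its partner, 12.57 and 12.59. Nanog, a factor of the naive state, read 12.73 and 12.47 in 2i, 12.29 and 11.62 in serum replicate 1 and 12.40 and 11.77 in serum replicate 2. The day 5 level of Nanog in 2i was above both untreated serum levels. Nr5a2, a nuclear receptor gene, differed by -0.39 in 2i and by -0.99 and -1.78 in serum, and Tdgf1, a co-receptor of Nodal, by -0.52 against -0.40 and -0.01.

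Dppa3, the gene of the egg and germ line protein Stella, was the naive gene past 2-fold, at 7.02 and 8.21 in 2i, 6.85 and 7.67 in serum replicate 1 and 5.15 and 8.65 in serum replicate 2. It was higher at day 5 in all 3 pairs. Utf1, a chromatin protein gene of pluripotent cells, read 8.34 and 9.62 in 2i, 11.02 and 11.51 in serum replicate 1 and 10.28 and 11.25 in serum replicate 2, so 2i came closer to serum but stayed below it. Utf1 was the 1 gene of 6 core pluripotency genes past 2-fold (0.435% of all genes higher and 2.23% lower).

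Of 13 formative and primed epiblast genes measured in 2i 3 were at least 2-fold higher (0.435% of all genes) and none 2-fold lower, 8 were above 0, and the median was 0.44. In the serum replicates 9 and 11 of the 13 were at least 2-fold higher (0.664% and 6.17% of all genes), with medians of 1.35 and 1.57. For 10 of the 13 the change was lower in 2i at an unadjusted p under 0.05 in limma's test, against 3.18% of all genes, and none passed after adjustment. The list was chosen with earlier results of these data known, so that share is not an independent result. Otx2, an early factor of the formative state, read 6.93 and 8.26 in 2i, 9.16 and 9.97 in serum replicate 1 and 9.31 and 9.28 in serum replicate 2. Otx2 thus moved further in 2i than in either serum pair, from a lower start, and the other 2 past 2-fold were Sox11 and Cdh2. Dnmt3b, a DNA methyltransferase gene, read 8.91 and 9.36 in 2i, 10.38 and 11.61 in serum replicate 1 and 10.79 and 12.37 in serum replicate 2. Pim2, a kinase gene downstream of cytokine receptors, read 7.38 and 8.13 in 2i, 7.23 and 10.15 in serum replicate 1 and 7.47 and 11.04 in serum replicate 2, from much the same start. Sox4, a relative of Sox11, went the other way, at -0.88 in 2i and 0.81 and 1.04 in serum, although its 5 other probe sets ran from -1.12 to 0.10 in 2i.

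**Figure D3:**
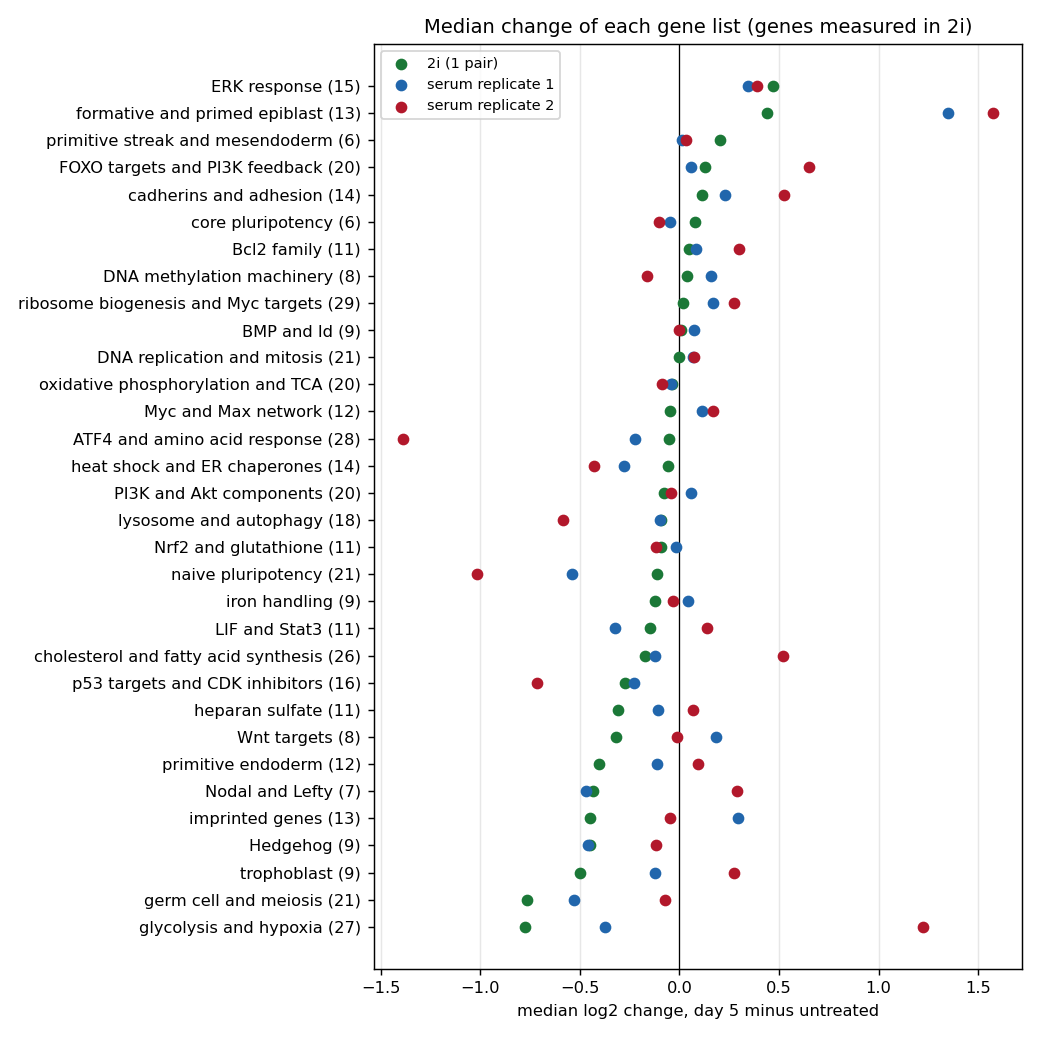
Points give the median log2 change at day 5 of each gene list in 2i (green), serum replicate 1 (blue) and serum replicate 2 (red), over the members measured in 2i, whose number stands in brackets, for lists with at least 6 of them. Glycolysis and hypoxia genes have the lowest 2i median (-0.78) and ERK response genes the highest (0.47).

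ERK turns on feedback genes whose products damp it, and 3 of these, Spry4, Dusp6 and Dusp4, stood far lower in untreated 2i than in untreated serum and were at least 2-fold higher at day 5. Of 15 ERK response genes measured these 3 were at least 2-fold higher (0.435% of all genes) and 1 at least 2-fold lower (2.23%), 14 were above 0 (50.7% of all genes), and the median was 0.47. Most of the 15 were above 0 in both serum replicates too, so the upward lean of the list was not particular to 2i. Junb, for example, was higher by 0.47 in 2i and by 0.96 and 1.23 in serum. Spry4, an antagonist of receptor signalling, read 3.16 and 5.33 in 2i, 9.80 and 10.07 in serum replicate 1 and 10.65 and 9.94 in serum replicate 2, and its other probe set was higher by 0.37 in 2i. Dusp6, a phosphatase of ERK, read 5.58 and 7.68 in 2i, 10.31 and 10.74 in serum replicate 1 and 10.72 and 11.68 in serum replicate 2. Dusp4, another ERK phosphatase, read 3.95 and 5.50 in 2i, 8.54 and 10.05 in serum replicate 1 and 8.83 and 9.42 in serum replicate 2. All 3 remained at day 5 in 2i below every serum sample. Egr1, an immediate-early factor, was higher by 0.75 in 2i and by 1.24 and 0.73 in serum, and Etv4, an ETS factor of the FGF path, by 0.80 in 2i, 0.06 in serum replicate 1 and -0.48 in serum replicate 2. Spry2, a relative of Spry4, read 9.57 and 9.72 in 2i and between 10.11 and 10.45 in serum, with no low start. Ier3, the gene below -1, read 8.12 and 7.08 in 2i and differed by -1.04 in 2i, -0.83 in serum replicate 1 and 2.05 in serum replicate 2.

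Id3 had the largest upward difference of the 12633 genes in 2i. This inhibitor of bHLH factors is a target of BMP signalling. It read 7.25 untreated and 9.60 at day 5 in 2i (5.10-fold), 8.33 and 8.40 in serum replicate 1 and 8.33 and 7.96 in serum replicate 2, so at day 5 it was above all 4 serum samples. The difference between media was 2.50 ± 0.27 (SE) without passing the adjusted test. Bmp4, a BMP ligand gene, read 7.13 and 8.27 in 2i, 9.72 and 10.12 in serum replicate 1 and 10.79 and 10.65 in serum replicate 2, and Smad6, an inhibitor of BMP signalling, was at -0.91 in 2i. Of 9 genes of BMP signalling and the Id family 2 were past 2-fold, both higher (0.435% of all genes), Id3 and Bmp4, and the median was 0.01.

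**Figure D4:**
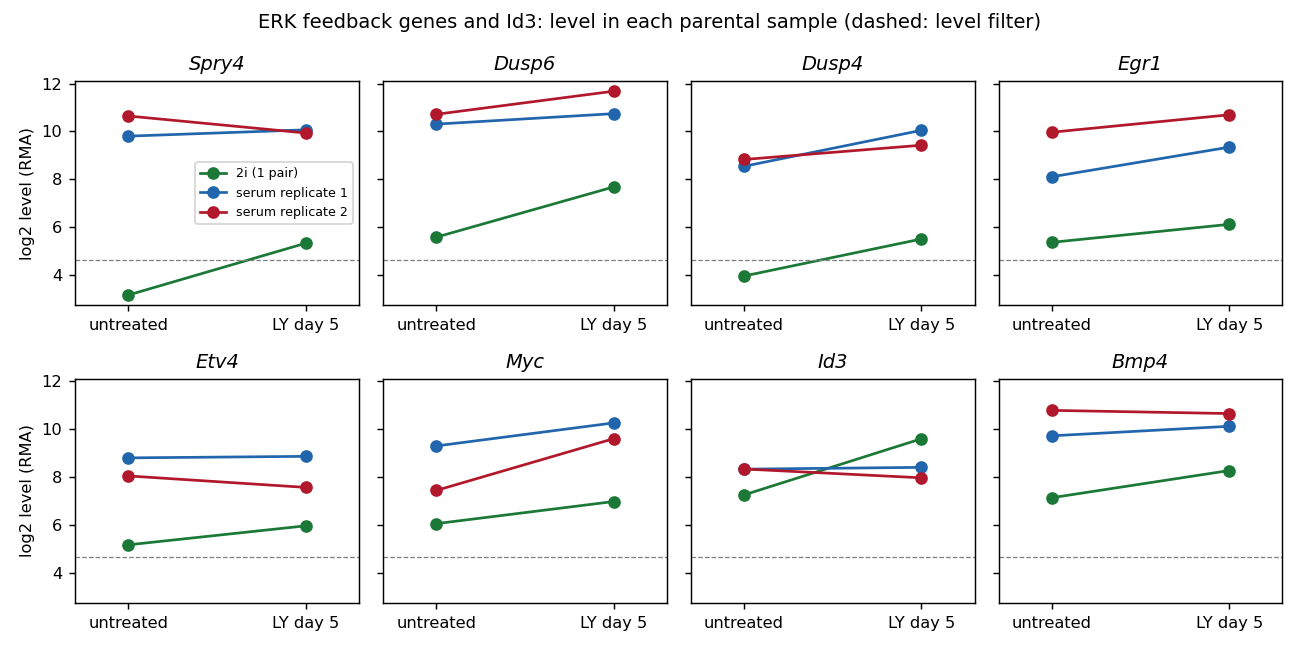
Each panel joins the untreated and the day 5 log2 level of 1 gene in 2i (green), serum replicate 1 (blue) and serum replicate 2 (red), 1 array per point, with the level filter of 4.64 dashed. Spry4, Dusp6, Dusp4 and Bmp4 are higher at day 5 in 2i and still below the serum arrays, while Id3 ends above them.

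The 55 genes higher at day 5 in 2i had higher median levels in serum than in 2i. Over them the untreated median was 5.58 in 2i and 7.02 and 7.53 in serum, and the day 5 median in 2i was 6.83. The untreated 2i sample is part of both quantities, and 12 of the 55 lay below the level filter untreated. Gja1, the gap junction gene connexin 43, read 6.83 and 8.96 in 2i, 11.15 and 12.27 in serum replicate 1 and 12.68 and 13.01 in serum replicate 2. Rasgrp2, an activator of Rap, read 6.10 and 7.70 in 2i against 9.01 to 9.35 in the serum samples, and Enox1, an oxidase gene, 4.36 and 6.23 against 8.64 to 10.32. Both were thus nearer to serum at day 5 than before. Trh, the thyrotropin-releasing hormone gene, was higher by 1.67 in 2i (8.24 and 9.91) and differed by -0.95 and -0.14 in serum. Mcam, an adhesion gene, was higher by 1.59 in 2i and at -0.72 and -0.01 in serum, Ttc29, a cilium gene, was higher by 1.80 against -0.74 and 0.81, and the neural gene Map2 by 1.91 against 0.45 and 1.75. The neuronal tubulin gene Tubb3, a marker of the neural list, read 7.16 and 8.48 in 2i and was lower in serum, at -0.19 and -0.83.

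Of the 55 genes 6 were at least 2-fold higher in serum replicate 1 (10.9%, against 0.664% of all genes) and 14 in serum replicate 2 (25.5%, against 6.17%). In both 4 were higher (against 0.449%), and 38 reached 2-fold in neither direction in either. Of the 282 lower genes 111 were at least 2-fold lower in serum replicate 1 (39.4%, against 3.09% of all genes) and 41 in serum replicate 2 (14.5%, against 4.05%). In serum replicate 2 another 51 were at least 2-fold higher (against 6.17% of all genes). The 30 lower in both are the kept genes, and 118 reached 2-fold in neither direction in either.

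Most glycolysis and hypoxia genes lay below 0 in 2i. Many of them are targets of the hypoxia-inducible factors (HIF), which PI3K and mTOR signalling supports. Of 27 measured 26 were below 0 (49% of all genes) and 8 at least 2-fold lower (2.23% of all genes), none was 2-fold higher, and the median was -0.78. In serum replicate 1 the median was -0.38 with 4 at least 2-fold lower (3.09% of all genes), and in serum replicate 2 it was 1.22 with 16 at least 2-fold higher (6.17%), so the serum replicates disagreed in direction. Bnip3, a mitophagy gene of hypoxia, read 11.68 and 10.09 in 2i, 11.53 and 11.03 in serum replicate 1 and 8.52 and 12.11 in serum replicate 2. Untreated 2i was close to untreated serum replicate 1 and far above serum replicate 2. Aldoc, an aldolase gene of glycolysis, read 10.67 and 9.24 in 2i, 9.76 and 8.18 in serum replicate 1 and 6.99 and 8.39 in serum replicate 2. Hk2, the hexokinase that opens glycolysis, read 10.98 and 9.74 in 2i, 10.58 and 9.76 in serum replicate 1 and 9.95 and 10.52 in serum replicate 2. Ndrg1, a stress gene of hypoxia, differed by -1.64 in 2i and by -0.39 and 0.01 in serum, with a difference between media of -1.45 ± 0.34 (SE) that did not pass adjustment. The lactate exporter gene Slc16a3 differed by -1.37 in 2i and by -0.18 and 2.43 in serum. Of the oxygen sensors, Egln3 differed by -1.37 in 2i, -1.17 in serum replicate 1 and 1.87 in serum replicate 2, and Egln1 by -1.19, -0.38 and 1.39. P4ha1, a collagen prolyl hydroxylase gene, differed by -1.22, -1.03 and 1.39.

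**Figure D5:**
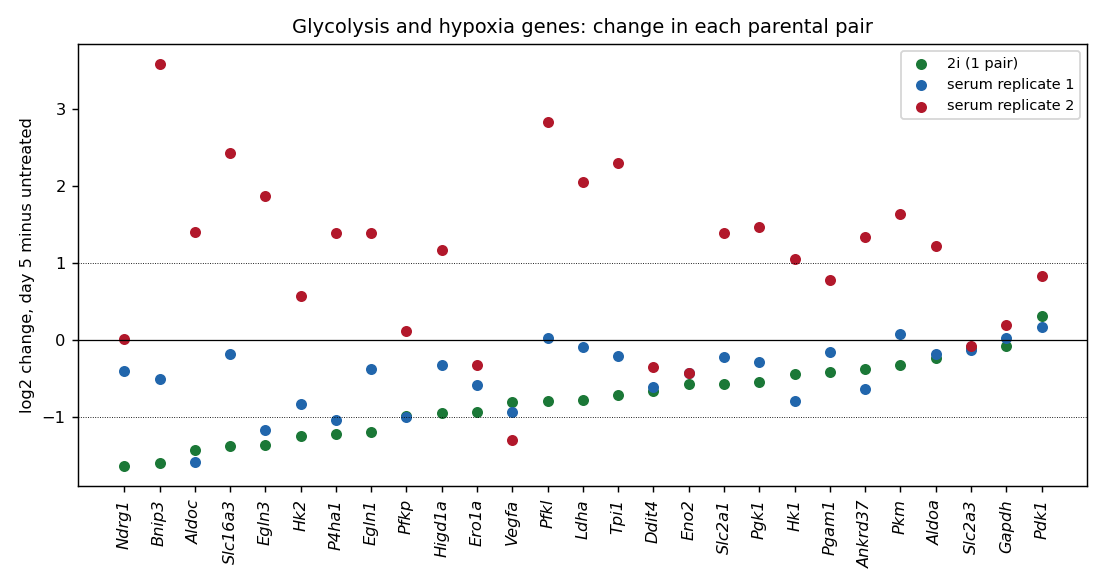
The log2 change at day 5 is shown for each of 27 glycolysis and hypoxia genes in 2i (green), serum replicate 1 (blue) and serum replicate 2 (red), ordered by the 2i change, with dotted lines at 2-fold. In 2i 26 points lie below 0, and 16 points of serum replicate 2 lie above the upper dotted line.

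HIF can bind the letters ACGTG, which stood in a promoter of each of the 7 genes among these 8 that have an entry in the promoter table, and 3 are shown for that reason. Promoters are those of RefSeq on GRCm38.p6, 250 bases before to 50 after the start, 5′ to 3′ on the strand of the gene, with ACGTG or its reverse complement CACGT in capitals. CACGTG holds both, and is shown whole. Bnip3 is at chr7:138909457-138909756 on the minus strand, Egln3 at chr12:54203825-54204124 on the minus strand and P4ha1 at chr10:59323046-59323345 on the plus strand.
Bnip3: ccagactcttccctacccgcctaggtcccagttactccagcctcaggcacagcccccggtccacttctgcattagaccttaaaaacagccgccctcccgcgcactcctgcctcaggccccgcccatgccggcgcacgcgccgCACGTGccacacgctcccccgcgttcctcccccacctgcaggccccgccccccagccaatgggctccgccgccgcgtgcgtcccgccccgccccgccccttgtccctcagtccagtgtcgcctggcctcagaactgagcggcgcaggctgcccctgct
Egln3: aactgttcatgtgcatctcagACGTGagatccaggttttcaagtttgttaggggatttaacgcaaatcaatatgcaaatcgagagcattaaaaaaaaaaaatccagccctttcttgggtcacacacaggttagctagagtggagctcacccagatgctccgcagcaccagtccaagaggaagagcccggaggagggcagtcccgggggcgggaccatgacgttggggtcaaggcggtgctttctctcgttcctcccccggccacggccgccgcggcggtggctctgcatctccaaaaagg
P4ha1: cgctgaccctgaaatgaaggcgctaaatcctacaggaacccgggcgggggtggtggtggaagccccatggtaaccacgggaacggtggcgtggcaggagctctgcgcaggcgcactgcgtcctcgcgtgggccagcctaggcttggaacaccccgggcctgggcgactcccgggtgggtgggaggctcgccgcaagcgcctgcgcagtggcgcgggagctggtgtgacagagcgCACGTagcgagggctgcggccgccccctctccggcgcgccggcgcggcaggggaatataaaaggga
Of the 25 list genes with a listed promoter, 20 (80.0%) had ACGTG on either strand in at least 1 promoter, against 2956 of 10203 genes measured in 2i (29.0%). Of all 211 genes at least 2-fold lower in 2i with a promoter, 65 (30.8%) had it. Among the 18 list genes short of 2-fold 13 had it. Many genes of the list are known HIF targets, so the share in the list is not an independent result, and a match describes these letters and not binding.

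Germ cell and meiosis genes, some of which ESCs express, lay mostly below 0 in 2i. Of 21 measured 20 were below 0 (49% of all genes) and 7 at least 2-fold lower (2.23%), with a median of -0.76 against -0.53 and -0.07 in serum. Stra8, the gatekeeper of meiosis, read 10.26 and 7.52 in 2i, 9.39 and 6.74 in serum replicate 1 and 6.01 and 5.54 in serum replicate 2. Its downward difference was thus larger in the pairs with a high start. Sycp3, a protein of the meiotic chromosome axis, read 9.23 and 7.82 in 2i, 9.99 and 8.72 in serum replicate 1 and 11.18 and 9.66 in serum replicate 2. Its differences of -1.41, -1.28 and -1.52 were nearly the same in the 3 pairs. Taf7l, a germ cell transcription factor subunit, differed by -1.52 in 2i and by -1.68 and -0.24 in serum, and Smc1b, a meiotic cohesin, by -1.10 against -1.76 and -0.48. Tex11, an X-linked meiosis gene, differed by -1.16 against -0.93 and -1.53. Mael, a piRNA pathway gene, was lower in 2i and serum replicate 1 (-1.07 and -0.53) and higher in serum replicate 2 (1.70). Sycp1, of the same complex as Sycp3, went from 4.74 to 3.73 in 2i, across the level filter. Taf7l (5.92 to 4.40) and Tex11 (5.71 to 4.55) crossed it as well. These members of the 7 entered the count only through their untreated level, which favours a lower value at day 5.

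Some germ line promoters hold the E-box CACGTG, the letters bound by dimers of Max, and the promoter of Sycp3, at least 2-fold lower in all 3 pairs, is shown for it. It lies at chr10:88459337-88459636 on the plus strand, with CACGTG, which reads alike on both strands and overlaps ACGTG, in capitals.
Sycp3: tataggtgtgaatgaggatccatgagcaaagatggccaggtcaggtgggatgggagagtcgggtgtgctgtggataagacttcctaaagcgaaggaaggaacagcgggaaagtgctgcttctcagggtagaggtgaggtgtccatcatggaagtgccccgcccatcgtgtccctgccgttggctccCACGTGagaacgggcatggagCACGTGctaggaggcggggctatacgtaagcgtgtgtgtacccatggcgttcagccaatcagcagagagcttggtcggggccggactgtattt
CACGTG was in the promoters of 10 of 19 list genes (52.6%), against 1200 of 10203 genes measured in 2i (11.8%) and 21 of the 211 lower genes (9.95%). Of the list genes at least 2-fold lower, 4 of 6 had it (Sycp1, Sycp3, Mael and Taf7l), and Stra8 and Smc1b had none in this window. Tex11 has no entry in the promoter table. Among the other list genes 6 of 13 (46.2%) had it. The list was chosen with earlier results of these data known, so its share is not an independent result, and a match does not describe binding.

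Of 8 Wnt targets 6 were below 0 in 2i (49% of all genes), 2 at least 2-fold lower (2.23%) and none 2-fold higher, with a median of -0.32. Sp5, a direct target of beta-catenin in ESCs, read 8.28 and 5.35 in 2i, 4.87 and 5.12 in serum replicate 1 and 4.80 and 6.89 in serum replicate 2. Untreated 2i, the medium with the GSK3 inhibitor, was far above all serum samples, and at day 5 2i lay among them. The difference between media of -4.10 ± 0.77 (SE) did not pass adjustment. Cdx1, another beta-catenin target, read 9.07 and 7.10 in 2i, 6.88 and 4.79 in serum replicate 1 and 4.95 and 4.34 in serum replicate 2. Notum, a secreted Wnt antagonist, was higher by 0.73 in 2i, the cyclin gene Ccnd1 was at -0.71, and Axin2, a negative regulator that beta-catenin induces, was at -0.48 in 2i and 0.35 and 0.68 in serum. The Sp5 promoter, at chr2:70474673-70474972 on the plus strand, is shown because it holds the TCF/LEF letters ATCAAAG, here as the reverse complement CTTTGAT in capitals. They overlap neither of the other motifs. Of 10203 genes measured in 2i 324 (3.18%) have them, and of the 211 lower genes 7 (3.32%). Sp5 was the 1 gene with them of 4 Wnt targets that have a listed promoter, and a match does not describe binding.
Sp5: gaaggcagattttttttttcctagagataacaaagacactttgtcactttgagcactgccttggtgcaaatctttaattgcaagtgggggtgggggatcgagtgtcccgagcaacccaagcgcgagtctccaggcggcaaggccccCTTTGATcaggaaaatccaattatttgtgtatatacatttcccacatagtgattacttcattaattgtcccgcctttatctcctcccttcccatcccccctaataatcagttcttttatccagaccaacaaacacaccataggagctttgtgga

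Lefty2 and Lefty1, secreted antagonists of Nodal, were both lower in 2i. Lefty2 read 8.20 and 5.95 in 2i, 8.52 and 5.23 in serum replicate 1 and 6.99 and 7.61 in serum replicate 2. Lefty1 read 9.05 and 7.42 in 2i, 10.54 and 9.16 in serum replicate 1 and 9.70 and 11.03 in serum replicate 2, with the same split. All 7 genes measured of the Nodal pathway were below 0 in 2i (49% of all genes; median -0.43), and Nodal itself was at -0.43. Of 9 Hedgehog genes 7 were below 0 in 2i (49% of all genes), with a median of -0.45 against -0.46 and -0.12 in serum. Smo, the signal transducer of the pathway, had the largest difference in 2i, at -0.98, and was at -0.08 and 0.86 in serum. Gli1, the effector and target of the pathway, read 6.35 and 5.64 in 2i, 8.58 and 6.57 in serum replicate 1 and 8.98 and 6.20 in serum replicate 2. Hhip, an inhibitor the pathway induces, differed by -0.87 in 2i and by -2.02 and -5.00 in serum. None of the 9 was 2-fold lower in 2i (2.23% of all genes), and 2 and 4 were in the serum replicates (3.09% and 4.05%).

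Genes of the PI3K path and its readouts differed by little as a group. Of 20 components of PI3K and Akt signalling 1 was at least 2-fold higher (0.435% of all genes) and 1 lower (2.23%), with a median of -0.08. Eras, an ESC Ras that activates PI3K, read 8.85 and 9.90 in 2i, 10.86 and 10.92 in serum replicate 1 and 10.73 and 11.08 in serum replicate 2, moving toward serum. Pik3r3, a regulatory subunit of PI3K, read 6.30 and 4.54 in 2i and between 3.77 and 4.78 in serum, and Pik3ca, its catalytic subunit p110 alpha, differed by -0.42. Among 20 targets of FOXO and PI3K feedback genes 2 were at least 2-fold higher (0.435% of all genes). Their median was 0.13, against 0.06 and 0.65 in serum. Gadd45a, a stress gene, read 8.13 and 9.55 in 2i and was at -0.03 and -0.32 in serum, and Txnip, an inhibitor of glucose uptake, read 10.92 and 11.93 and was at 0.14 and -0.41. The FOXO target Ccng2 and the insulin receptor gene Insr were at -0.97 and -0.87 in 2i.

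Myc read 6.05 and 6.97 in 2i, 9.30 and 10.26 in serum replicate 1 and 7.43 and 9.60 in serum replicate 2, so the difference of 0.93 in 2i was near that of serum replicate 1 (0.96) and below that of serum replicate 2 (2.17). Both 2i levels were below all serum levels. Mycn, the other Myc gene of ESCs, read 10.53 and 11.08 in 2i and was higher by 0.60 and 0.62 in serum, and Max, their partner, was at -0.07. Of 29 genes of ribosome biogenesis and Myc targets none was past 2-fold in either direction (median 0.02). With 0.435% of all genes 2-fold higher in 2i and 2.23% lower, a count of 0 says little in a list of this size. Tfrc, the transferrin receptor, was at -0.999, just outside.

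Of 28 ATF4 targets, the genes of amino acid supply under stress, none was past 2-fold in 2i. Of all genes 0.435% were 2-fold higher and 2.23% lower there, so a count of 0 says little. Their median was -0.05 in 2i. It was -0.22 in serum replicate 1, with 1 at least 2-fold lower (3.09% of all genes). In serum replicate 2 it was -1.39, with 18 at least 2-fold lower (4.05%). Chac1, a glutathione-degrading target, read 9.53 and 10.29 in 2i, 10.04 and 10.01 in serum replicate 1 and 10.22 and 8.16 in serum replicate 2. Cth, an enzyme of cysteine synthesis, differed by -0.83 in 2i and by -0.97 and -2.50 in serum, and Gpt2, an alanine transaminase, by -0.68 against -1.04 and -2.10. The 2i values were thus nearer to those of serum replicate 1 for these 3 genes.

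Imprinted genes, which 1 parental allele expresses, had 4 at least 2-fold lower (2.23% of all genes) and 1 higher (0.435%) of 13 measured in 2i. Phlda2, a placental growth restrainer, read 10.08 and 8.21 in 2i, 10.00 and 8.40 in serum replicate 1 and 11.51 and 9.20 in serum replicate 2, lower in all 3 pairs. Grb10, an adaptor that restrains insulin signalling, was likewise at -1.42, -0.86 and -1.53. Cdkn1c, the cell cycle inhibitor p57, read 7.29 and 6.17 in 2i, 7.96 and 9.24 in serum replicate 1 and 8.13 and 9.04 in serum replicate 2, a difference between media of -2.22 ± 0.24 (SE). Sgce, a sarcoglycan gene, went the same ways as Cdkn1c, at -1.51 in 2i and 0.63 and 0.92 in serum. Mest, a hydrolase gene, was higher by 1.21 in 2i and at 0.68 and -0.44 in serum.

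Of 9 trophoblast genes 8 and of 12 primitive endoderm genes 10 were below 0 in 2i (49% of all genes), with medians of -0.50 and -0.40. Krt8, a keratin of simple epithelia, read 9.02 and 7.82 in 2i, 7.04 and 7.15 in serum replicate 1 and 6.56 and 10.34 in serum replicate 2. Its partner Krt18 was at -0.73 in 2i and at 0.37 and 4.21 in serum, and Krt19 at -1.72 in 2i and -0.56 and 3.51 in serum. Of the trophoblast genes 3 were at least 2-fold lower in 2i (2.23% of all genes), the third being Ascl2, at -1.22, and of the primitive endoderm genes 2, both for collagen IV chains (Col4a2 at -1.32 and Col4a1 at -1.06). In serum replicate 2 these keratins and collagens were higher, and in serum replicate 1 none of the 5 passed 2-fold.

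Lists with no member past 2-fold in 2i, a limit that 0.435% of all genes passed upward and 2.23% downward, so that a count of 0 says little in lists of this size, were those of DNA replication and mitosis (median 0.00, 0 of 21 past 2-fold), oxidative phosphorylation and the TCA cycle (-0.04, 0 of 20), lysosome and autophagy (-0.09, 0 of 18), cholesterol and fatty acid synthesis (-0.18, 0 of 26), chaperones (-0.06, 0 of 14) and the Bcl2 family (0.05, 0 of 11). The cholesterol genes had a median of 0.52 in serum replicate 2 and of -0.12 in serum replicate 1. Among 16 p53 targets and CDK inhibitors only Cdkn1c was past 2-fold, and Cdkn1a, the inhibitor p21, read 11.20 and 10.28 in 2i, 9.48 and 7.92 in serum replicate 1 and 9.06 and 7.92 in serum replicate 2. It was highest in untreated 2i and lower at day 5 in all 3 pairs.

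The 282 genes lower at day 5 in 2i had a higher median level in untreated 2i than in untreated serum. Over them the untreated median was 7.03 in 2i and 6.25 and 5.75 in serum, and at day 5 it was 5.68 in 2i, with 62 of them below the level filter. The untreated 2i sample is part of both quantities. Gm20767 read 7.27 and 3.13 in 2i and between 2.48 and 5.11 in serum, and AF067061 9.04 and 5.37 in 2i and between 4.34 and 6.65 in serum. These adjacent genes, and Usp17la, a deubiquitinase gene of 2-cell-like cells (6.84 and 3.34 in 2i), have close copies in the genome, so their values are uncertain. Of 3 two-cell-like genes measured 2 were at least 2-fold lower (2.23% of all genes), the other being Arg2, an arginase gene, at -1.74. All 3 passed the level filter only in the untreated sample, Arg2 going from 5.29 to 3.55 and Zfp352 from 5.13 to 4.39. The filter thus kept members with a high untreated value, and the count is not a result about the list. Bhmt, which makes methionine from homocysteine and betaine, read 8.57 and 5.71 in 2i, 4.06 and 3.20 in serum replicate 1 and 3.70 and 3.80 in serum replicate 2. Its 2i levels were both above all serum levels. Cap2, an actin regulator, read 6.93 and 4.58 in 2i and between 4.22 and 4.67 in serum, and its other probe set was at -2.29 in 2i. Gm11545 read 7.87 and 5.45 in 2i and between 3.66 and 5.21 in serum. Alox12b, a lipoxygenase gene, went from 6.27 to 3.89 and BC080696 from 5.07 to 2.74 in 2i, both below the level filter at day 5. Capn3, a calpain of muscle, was at -2.29 in 2i, -0.10 in serum replicate 1 and -3.11 in serum replicate 2, with another probe set at -0.34 in 2i.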

How the data were processed

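The deposited table holds log2 values of 45101 Affymetrix probe sets, computed by RMA with the affy package per the submitters' processing notes, with versions and settings not given in the sources used here. RMA compresses the changes of probe sets near background. Of these probe sets 34958 named 1 gene, 932 several and 9211 none, and 64 of the 45101 were controls. Each of 18194 genes took the values of whichever single-gene probe set averaged highest across the 18 samples.

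Changes are differences of 2 arrays, paired by the reference sample that a description names. The difference between media was tested by lmFit and eBayes of limma 3.58.1 in R 4.3.3 on 10 samples, with the pair as a block, 2-sided, Benjamini-Hochberg adjusted over 13581 genes, and was tested on simulated data. Pairs are those the descriptions name, not replicate numbers.

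Named genes are the 12 largest differences each way in 2i, per list the 4 largest and any past 2-fold, the 8 kept, absent and reversed serum genes each way, the 8 smallest p-values each way, and 7 genes looked up. Egr1, Etv4, Spry2, Axin2, Prom1, Acsbg3, Manba and the genes of runs were chosen after their values were seen. The members, the 37 lists and the alternatives (level filter, scaling, probe sets, fold, samples, block, prior) were chosen with earlier results of these data known.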

Additional observations from a re-analysis of the deposited data

Results flagged for a closer look

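Of the genes past 2-fold in both parental serum pairs, 15 of 40 serum-higher genes were below 0 in 2i (49% of all genes). Of 134 serum-lower genes 10 were not below 0 (50.7% of all genes were above 0), among them Cyb5r2 at exactly 0. Of these genes 5 differed the other way by at least 0.5. Mex3b was at -1.23 in 2i (1.01 and 2.88 in serum), Slc40a1 at -0.54 (2.97 and 3.97) and Prom1, the gene of the surface marker CD133, at -0.52 (1.11 and 2.66). Acsbg3, an acyl-CoA synthetase gene, was at 0.63 in 2i (-1.10 and -2.26 in serum) and Manba, a lysosomal mannosidase gene, at 0.70 (-1.55 and -2.16). The 2i value rests on 1 pair, and in limma's test of the difference none of the 5 passed after adjustment (smallest adjusted p over all genes 0.405).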

How the results depend on the processing

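The 2i counts rest on 1 array per state, so no setting gives them a replicate check. At 1.5-fold the 2i counts were 276 higher and 823 lower, and the serum sets held 246 higher genes (39 kept, 79 absent and 13 reversed in 2i) and 437 lower genes (151 kept, 152 absent and 4 reversed). Averaging all probe sets of a gene left 35 genes higher in 2i, 2 kept and 2 reversed serum-higher genes. The absent serum-higher genes numbered 13 with a filter raised to the 60th percentile and 47 without one, since the filter moves genes between absent and below level. Counting only genes above the filter in both 2i samples, a choice made after seeing the data, gave 43 higher and 220 lower. From 1 serum replicate alone the serum sets ran from 83 to 811 higher genes (6 to 14 kept, 40 to 481 absent, 2 to 51 reversed) and from 393 to 532 lower genes (41 to 111 kept, 125 to 349 absent, 0 to 1 reversed). For the test of the difference, leaving out a parental serum replicate or a c-Myc line gave 0 to 1137 genes higher and 0 to 1845 lower in 2i. The upper values came without serum replicate 1, and the cause was not tested. With no replicate block the fit passed 0 genes, and over all settings the smallest limma adjusted p ran from 0.0075 to 1.00. Of the 199 named genes none turned its direction past 2-fold under another scaling, 4 were no longer past 2-fold after quantile normalization (Col4a1, Mael, Ier3 and Txnip), and 18 when probe sets were averaged, among them Spry4 (0.64), Ttn (-0.55), Map2 (0.67) and Utf1 (0.81). Precision is limited by the number of arrays.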

Other observations

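Genes lower at day 5 in 2i in part sat side by side. In the RefSeq order of the genes measured, 34 of the 282 lower genes (12.1%) formed 15 runs of neighbours, and 2 of the 55 higher genes formed 1 run, Dusp6 with the ligand gene Kitl (1.27). These genes were named after their values were seen, and how often neighbours would be found together in a set of this size was not tested. The longest run held 4 genes on chromosome 13. It began with Bhmt and went on with Bhmt2, a second homocysteine methyltransferase gene (-1.91). Next came Dmgdh (-1.72), which takes a methyl group off dimethylglycine, a product of Bhmt. The run ended with Arsb, a lysosomal sulfatase gene (-1.36). Bhmt2 read 7.58 and 5.67 in 2i and 3.48 to 3.74 in the 4 serum samples, and Dmgdh read 8.29 and 6.57 in 2i and 3.58 to 4.69 in serum.

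Bhmt2 and Dmgdh start back to back, 134 bases apart on opposite strands in RefSeq, so the promoter of Dmgdh, at chr13:93674186-93674485 on the plus strand of GRCm38.p6, lies over the start of both and is shown for that reason.
Dmgdh: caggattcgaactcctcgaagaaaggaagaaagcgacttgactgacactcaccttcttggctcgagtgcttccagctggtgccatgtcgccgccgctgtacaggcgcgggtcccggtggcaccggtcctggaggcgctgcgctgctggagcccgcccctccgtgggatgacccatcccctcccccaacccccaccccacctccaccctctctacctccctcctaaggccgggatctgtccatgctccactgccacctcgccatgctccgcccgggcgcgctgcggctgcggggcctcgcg
Other runs were Pdlim4, P4ha2 and Acsl6 (-1.16, -2.08 and -1.54), of which P4ha2 is a prolyl hydroxylase like P4ha1, the small heat shock genes Cryab and Hspb2 (-1.97 and -1.04), and Ddc, a decarboxylase gene, with the imprinted Grb10 (-1.29 and -1.42). Col4a1 with Col4a2 and Lefty2 with Lefty1 were runs as well, and probes of such related genes may read each other.

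Outside the gene table, 615 probe sets that name several genes lay above the level filter in 2i, of which 6 were at least 2-fold higher and 16 lower at day 5. Of 2864 probe sets without a gene name above it, 10 were higher and 18 lower.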
